A study of Mus musculus with 2 samples.

Results

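The miR-181 family of microRNAs was examined in mouse liver after short-term ethanol feeding. The family was chosen by name, as the 7 mature microRNAs mmu-miR-181a-5p, mmu-miR-181b-5p, mmu-miR-181c-5p, mmu-miR-181d-5p, mmu-miR-181a-1-3p, mmu-miR-181a-2-3p and mmu-miR-181c-3p. All 7 names are among the 484 microRNAs of the first deposited table (experiment 1) and the 1915 of the second (experiment 2). In experiment 2, mmu-miR-181a-2-3p is listed at 0 in both libraries, so that 6 members had values there. Each table holds 1 pair-fed and 1 ethanol-fed library, the tables were normalized separately, and the sample labels list 1 sample per condition. The experiments were therefore not treated as replicates, their values are given side by side, and no p-value was computed.

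The livers came from female C57BL/6 mice, 8 to 10 weeks old and with no engineered allele named. All of them were first acclimatized to control liquid Lieber-DeCarli diet for 5 days. The ethanol-fed group then had that diet with 5% (v/v) ethanol for 10 days and a gavage of 6 g/kg ethanol on day 16. The pair-fed group had the isocaloric control diet and a gavage of dextrin-maltose, and both were killed 9 h after the gavage. The series' design statement gives 16 days of ethanol feeding instead. How many animals stand behind a library is not given in the sources used here. Experiment 1 has 4170601 (pair-fed) and 4311802 (ethanol-fed) reads on microRNAs. Experiment 2 is deposited in reads per 1000000 reads on microRNAs (RPM), and the step between its low values puts its totals at an estimated 10812887 and 10820810 reads. Its lowest listed value is 0.92 RPM, about 10 reads, and anything below appears as 0. The liver microRNA mmu-miR-122-5p was present in all 4 libraries, at 2971 and 2210 RPM in experiment 1 and at 182938 and 156660 RPM in experiment 2, so that the tables differ in makeup far beyond the family described here.

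A microRNA is cut from a hairpin as a duplex of a 5p and a 3p strand, and 1 strand (the guide) is mostly kept in an Argonaute protein, where its seed, bases 2 to 8, pairs with messenger RNAs. The other strand (the passenger) is mostly degraded. In the miR-181 family the 5p strands are the guides. The family is best known for tuning T cell receptor signalling and lymphocyte development and for restraining inflammatory signalling in vascular endothelium, and in liver it has been studied in stellate cells and in insulin responses of hepatocytes, where Sirt1 has been described as a target.

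The 4 guide strands are shown first because a common seed (in capitals) is what makes them a family, as given by RefSeq for mouse assembly GRCm38.p6.
mmu-miR-181a-5p: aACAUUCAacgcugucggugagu
mmu-miR-181b-5p: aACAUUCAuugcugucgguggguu
mmu-miR-181c-5p: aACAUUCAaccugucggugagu
mmu-miR-181d-5p: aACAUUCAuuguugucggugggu

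Of the 1679 mature mouse microRNAs in the RefSeq table, these 4 are the only ones with the seed ACAUUCA. Outside the seed they differ little. Counted from the 5′ end of miR-181a-5p, miR-181b-5p carries A9U, C10U and A21G and 1 further base at its 3′ end. miR-181c-5p is 1 base shorter, with a gap at position 11 of miR-181a-5p and no substitution. From miR-181b-5p, miR-181d-5p differs by C12U and lacks the last base. Reads with sequencing errors or trimmed ends may thus be assigned to the wrong member, and how the authors dealt with this is not given in the sources used here.

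The 3 passenger strands are shown because, unlike the guides, they tell the hairpins of miR-181a-5p apart.
mmu-miR-181a-1-3p: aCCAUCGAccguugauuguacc
mmu-miR-181a-2-3p: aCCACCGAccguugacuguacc
mmu-miR-181c-3p: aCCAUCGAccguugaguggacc

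The seed CCAUCGA is common to miR-181a-1-3p and miR-181c-3p, while miR-181a-2-3p has CCACCGA. Counted along miR-181a-1-3p, miR-181a-2-3p differs by U5C and U16C, and miR-181c-3p by U16G and U19G.

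The hairpins lie in 3 pairs, and the coordinates are those of RefSeq and not of the deposited files, which hold none. Mir181a-1 and Mir181b-1 are on the plus strand of chromosome 1, where miR-181a-5p occupies chr1:137966468-137966490 and miR-181b-5p starts 182 bp further, within introns of the noncoding transcript gene Gm4258 (GENCODE vM21, GRCm38). Mir181b-1 also overlaps an exon of the long noncoding RNA A430106G13Rik. Mir181a-2 and Mir181b-2 are on the plus strand of chromosome 2, with miR-181a-5p at chr2:38852741-38852763 and miR-181b-5p starting 1104 bp further, in an intron of Nr6a1, an orphan nuclear receptor gene that runs on the opposite strand. Mir181c and Mir181d are on the minus strand of chromosome 8, with miR-181c-5p at chr8:84178924-84178945 and miR-181d-5p starting 164 bp further, in an intron of Nanos3 on the same strand. miR-181a-5p and miR-181b-5p each have the same sequence at both of their loci, so their reads cannot be divided between chromosomes 1 and 2.

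miR-181a-5p, the most abundant member in all 4 libraries, was slightly lower after ethanol in experiment 1 and slightly higher in experiment 2. It had 20640 reads (4949 RPM) in the pair-fed and 19125 reads (4435.5 RPM) in the ethanol-fed library of experiment 1. In experiment 2 it had 464 RPM and 561 RPM. On the log2 scale, the ratio of the ethanol-fed to the pair-fed level was -0.16 (95% interval of counting error -0.19 to -0.13) in experiment 1 and 0.27 (0.22 to 0.33) in experiment 2. Both intervals exclude 0, on opposite sides, and both shifts are small, 1.12-fold lower and 1.21-fold higher. These intervals describe the sampling of reads from the libraries at hand, and PCR copies were not told apart. In whole liver, fewer cells of a type and less RNA per cell cannot be told apart. It ranked 20th and 19th among the microRNAs of experiment 1 but 71st and 63rd among those of experiment 2.

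miR-181b-5p, its partner on both chromosomes, followed the same pair of directions. Its level went from 246 RPM (1025 reads) to 167 RPM (718 reads) in experiment 1, and from 72.9 to 84.7 RPM in experiment 2. The log2 ratios were -0.56 (-0.70 to -0.42) and 0.22 (0.079 to 0.35). It was thus 1.48-fold lower in experiment 1, a larger shift than that of miR-181a-5p, and 1.16-fold higher in experiment 2. With it, the ratio of miR-181a-5p to miR-181b-5p reads in experiment 1 was 20.1 (18.9 to 21.4) in the pair-fed and 26.6 (24.7 to 28.7) in the ethanol-fed library. In experiment 2 the same ratio was 6.37 (5.91 to 6.86) and 6.63 (6.19 to 7.11), with intervals that overlap.

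The guides of the chromosome 8 pair behaved differently from those of miR-181a and miR-181b in experiment 1. miR-181c-5p was at 157 RPM (654 reads) in the pair-fed and 186 RPM (801 reads) in the ethanol-fed library, a log2 ratio of 0.24 (0.096 to 0.39). miR-181d-5p was at 17.0 RPM (71 reads) and 30.4 RPM (131 reads), a log2 ratio of 0.83 (0.42 to 1.25), or 1.77-fold higher. Both intervals lie above 0, whereas those of miR-181a-5p and miR-181b-5p lie below. In experiment 2 this split was not seen. There, miR-181c-5p was at 5.92 and 6.75 RPM, about 64 and 73 reads, with a log2 ratio of 0.19 whose interval of -0.29 to 0.67 includes 0. miR-181d-5p was at 28.7 and 23.6 RPM, with a log2 ratio of -0.28 (-0.52 to -0.044).

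**Figure D1:**
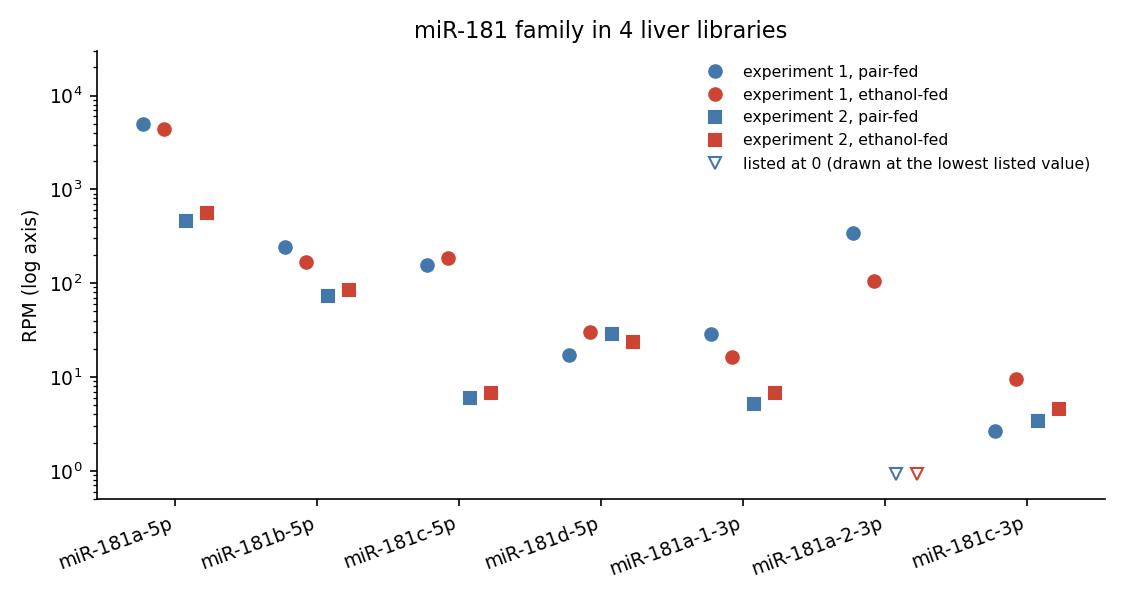
Level of each miR-181 family member in the 4 libraries, in RPM on a log axis, with circles for experiment 1, squares for experiment 2, blue for pair-fed and red for ethanol-fed. miR-181a-5p is highest in every library (464 to 4949 RPM), and miR-181a-2-3p, at 343 and 104 RPM in experiment 1, is listed at 0 in both libraries of experiment 2 (open triangles, drawn at the lowest listed value).

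The largest 2 differences of the family were those of passenger strands, miR-181a-2-3p and miR-181c-3p, in experiment 1. miR-181a-2-3p, the passenger of the chromosome 2 copy of miR-181a, had 1431 reads (343 RPM) in the pair-fed and 450 reads (104 RPM) in the ethanol-fed library. The log2 ratio of -1.71 (-1.87 to -1.56) makes it 3.28-fold lower. It was thus more abundant than miR-181b-5p in the pair-fed library, and less abundant than both miR-181b-5p and miR-181c-5p in the ethanol-fed one. miR-181a-1-3p, the passenger of the chromosome 1 copy, had 119 reads (28.5 RPM) and 71 reads (16.5 RPM), a log2 ratio of -0.79 (-1.22 to -0.37). miR-181c-3p went the other way, from 11 reads (2.64 RPM) to 41 reads (9.51 RPM), with a log2 ratio of 1.76 (0.91 to 2.79).

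In experiment 2, the passenger strands were scarce and close between the libraries. miR-181a-1-3p was at 5.18 and 6.75 RPM, with a log2 ratio of 0.38 (-0.12 to 0.88). miR-181c-3p was at 3.42 and 4.62 RPM, with a log2 ratio of 0.42 (-0.18 to 1.04). Neither difference was detectable at this depth. miR-181a-2-3p was listed at 0 in both libraries, under 0.92 RPM each, against 343 and 104 RPM in experiment 1. Among the 82 microRNAs that reached 1000 reads over both libraries of experiment 1, it was the only 1 listed at 0 throughout experiment 2, and with a minimum of 100 reads 3 of 158 were. The cause was not tested. This count was made after the values had been seen.

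**Figure D2:**
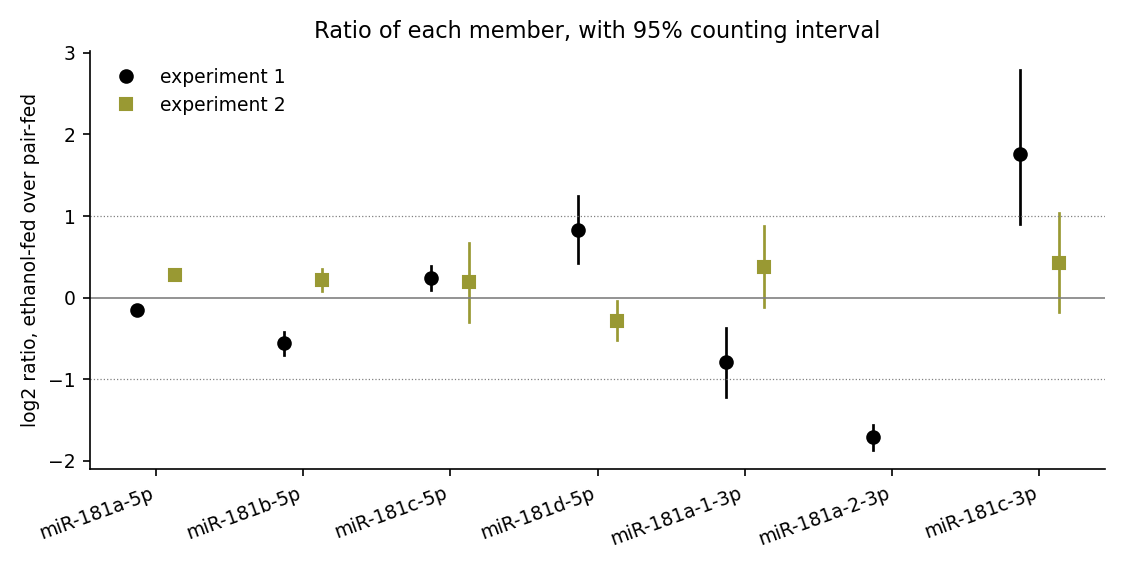
Ratio of the ethanol-fed to the pair-fed level of each member (log2 scale), with vertical lines for the 95% interval of counting error (circles experiment 1, squares experiment 2, dotted lines at 2-fold). In experiment 1 the 4 members of chromosomes 1 and 2 lie below 0 and the 3 of chromosome 8 above it, while in experiment 2 only miR-181d-5p (-0.28) lies below 0.

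Grouped by chromosome, a grouping made after the values had been seen, the family split in experiment 1. The 4 members from chromosomes 1 and 2 were each lower, and together went from 5566 to 4723 RPM, a log2 ratio of -0.24 (-0.26 to -0.21). The 3 members from chromosome 8 were each higher, and together went from 176 to 226 RPM, a log2 ratio of 0.35 (0.22 to 0.49). These directions were the same with unscaled reads (experiment 1), with median-of-ratios size factors and with miR-192-5p (experiment 1) or miR-148a-3p (experiment 2), the top microRNA, left out of the totals. In experiment 2 the corresponding sums went from 542 to 653 RPM, a log2 ratio of 0.27 (0.22 to 0.32), and from 38.0 to 34.9 RPM, a log2 ratio of -0.12 whose interval of -0.32 to 0.080 includes 0. The split of experiment 1 was therefore not found again in experiment 2.

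The sum over the 4 guides, which share targets through their seed, was dominated by miR-181a-5p. It was 5369 RPM (pair-fed) and 4818 RPM (ethanol-fed) in experiment 1, and 572 and 676 RPM in experiment 2. The log2 ratios were -0.16 (-0.18 to -0.13) and 0.24 (0.19 to 0.29), or 1.11-fold lower and 1.18-fold higher. The whole family made up 0.574% and 0.495% of the microRNA reads of experiment 1, and 0.0580% and 0.0688% of those of experiment 2. Over all 7 members the log2 ratios were -0.21 (-0.24 to -0.19) and 0.25 (0.20 to 0.29), and without miR-181a-2-3p the former was -0.16.

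At the minimum of 10 reads, large differences were about as frequent in the family as among all microRNAs of experiment 1, and absent from it in experiment 2. With a minimum of 10 reads summed over both libraries, 302 microRNAs were compared in experiment 1. At least 2-fold higher in the ethanol-fed library were 12.6% of them, among them 1 of the 7 members, miR-181c-3p, which has too few reads to be compared with a minimum of 100. At least 2-fold lower were 12.9%, among them 1 of the 7, miR-181a-2-3p. At 1.5-fold, 2 members were higher (miR-181c-3p and miR-181d-5p) beside 21.9% of all, and 2 lower (miR-181a-2-3p and miR-181a-1-3p) beside 22.5% of all. These shares are close to the background at this minimum. Of the 82 microRNAs with at least 1000 reads, 3 were at least 2-fold higher and 2 lower. The latter include miR-181a-2-3p, which reached that minimum through the library where it was high.

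In experiment 2, 469 microRNAs were compared, and 0 of the 6 members with values passed either fold in either direction. Of all microRNAs, 10.7% were at least 2-fold higher and 15.1% at least 2-fold lower, while 17.3% were at least 1.5-fold higher and 21.5% at least 1.5-fold lower. The median log2 ratio of the members was -0.16 in experiment 1 and 0.25 in experiment 2, beside -0.013 and 0.0026 over all microRNAs compared. The median size of the log2 ratio, regardless of sign, was 0.79 for the members and 0.52 for all in experiment 1, and 0.28 and 0.41 in experiment 2. Of all 302 microRNAs compared in experiment 1, miR-181a-2-3p had the 19th lowest log2 ratio. Of the 82 that reached 1000 reads it had the lowest, followed by miR-183-5p at -1.06, but with 1431 pair-fed and 450 ethanol-fed reads it reached that minimum through the library where it was high. This is given as a description.

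**Figure D3:**
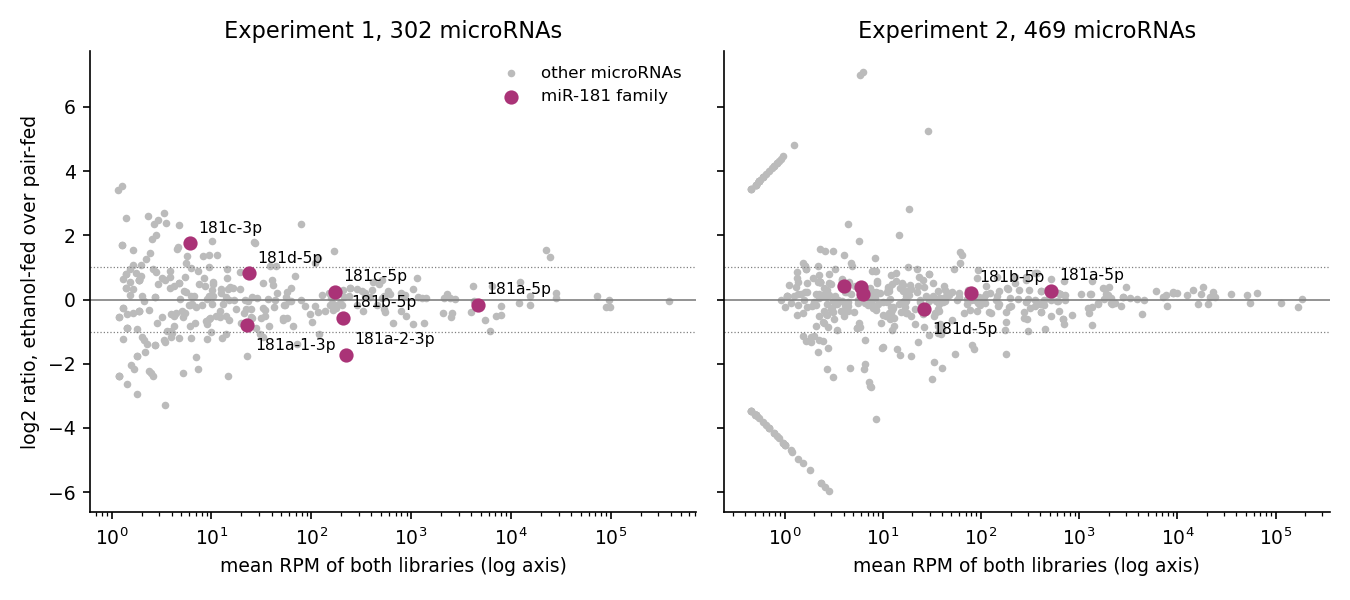
Ratio of the ethanol-fed to the pair-fed level (log2 scale) against the mean RPM (log axis) for every microRNA that had 10 reads or more, experiment 1 on the left (302) and experiment 2 on the right (469), with the miR-181 family in purple and dotted lines at 2-fold. miR-181a-2-3p (-1.71) and miR-181c-3p (1.76) lie outside the dotted lines in experiment 1, and all 6 members with values in experiment 2 lie within the dotted lines.

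The makeup of the guides differed more between the experiments than between the diets. miR-181a-5p made up 92.2% (95% Wilson interval 91.8% to 92.5%) of the guide reads in the pair-fed and 92.1% (91.7% to 92.4%) in the ethanol-fed library of experiment 1. In experiment 2 it made up 81.2% (80.2% to 82.2%) and 83.0% (82.1% to 83.8%). miR-181b-5p held 4.58% and 3.46% of the guide reads in experiment 1, against 12.8% and 12.5% in experiment 2. Its share was thus higher in both libraries of experiment 2 than in either of experiment 1.

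The order of the chromosome 8 pair was opposite in the 2 experiments. In experiment 1, miR-181c-5p had 2.92% (2.71% to 3.15%) and 3.86% (3.60% to 4.13%) of the guide reads, and miR-181d-5p 0.317% (0.252% to 0.400%) and 0.631% (0.532% to 0.748%). In experiment 2, miR-181c-5p had 1.04% (0.812% to 1.32%) and 0.998% (0.794% to 1.25%), and miR-181d-5p 5.02% (4.50% to 5.59%) and 3.48% (3.09% to 3.93%). In reads, miR-181c-5p exceeded miR-181d-5p 9.21-fold (7.21 to 11.8) and 6.11-fold (5.08 to 7.35) in experiment 1. miR-181d-5p exceeded miR-181c-5p 4.84-fold (3.70 to 6.33) and 3.49-fold (2.69 to 4.53) in experiment 2. Although both come from neighbouring hairpins, which of them was the more abundant thus depended on the table and not on the diet.

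**Figure D4:**
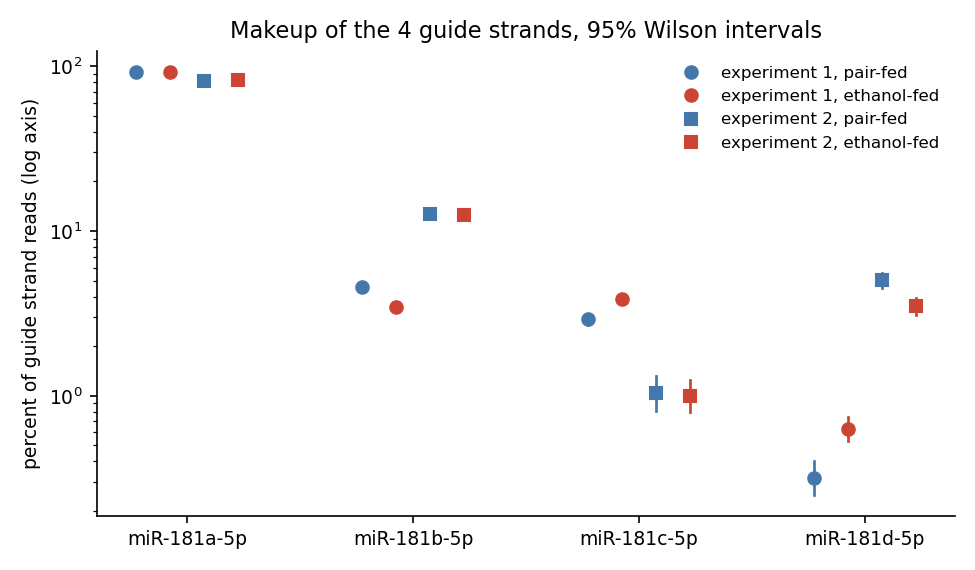
Percent of the summed reads of the 4 guide strands held by each, on a log axis, with 95% Wilson intervals (circles experiment 1, squares experiment 2, blue pair-fed, red ethanol-fed). miR-181c-5p lies above miR-181d-5p in experiment 1 (2.92% against 0.317% in the pair-fed library) and below it in experiment 2 (1.04% against 5.02%).

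Across the tables, which were scaled separately, miR-181c-5p and miR-181a-5p also stood far from the bulk of microRNAs. The pair-fed level of miR-181c-5p was 26.5-fold higher in experiment 1 than in experiment 2, and that of miR-181a-5p 10.7-fold higher. That of miR-181b-5p was 3.37-fold higher in experiment 1, and that of miR-181d-5p was 1.68-fold higher in experiment 2. For the 277 microRNAs that reached 10 reads in each table and were above 0 in both pair-fed libraries, the median level was 2.33-fold higher in experiment 2. Only 5 of the 277, miR-181c-5p included, had a fold in favour of experiment 1 as large as that of miR-181c-5p, and 16 had one as large as that of miR-181a-5p. For miR-181a-5p, miR-181b-5p and miR-181c-5p, the fold between the tables exceeded the fold between the diets within either table.

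The ratio of guide to passenger reads differed between the diets in experiment 1. miR-181a-5p had 13.3 (12.6 to 14.0) reads for each read of miR-181a-1-3p and miR-181a-2-3p together in the pair-fed library, and 36.7 (33.6 to 40.0) in the ethanol-fed library, 2.75-fold more. The difference was smaller without miR-181a-2-3p, since against miR-181a-1-3p alone the ratios were 173 (145 to 208) and 269 (213 to 340), 1.54-fold more. For miR-181c the ratio of 5p to 3p reads was 59.5 (33.0 to 107) in the pair-fed and 19.5 (14.3 to 26.7) in the ethanol-fed library, a log2 change of -1.52. The ratios of miR-181a and miR-181c thus differed in opposite directions. In the same libraries, 74 hairpins with at least 10 reads on each arm had a median log2 change of 0.65 in size. Of these, 16 had one at least as large as that of miR-181a, so that values of this size were common at that minimum. No such share was computed among hairpins counted as deeply as miR-181a.

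The passenger of the chromosome 2 copy outnumbered that of the chromosome 1 copy in experiment 1. There were 12.0 (9.98 to 14.5) reads of miR-181a-2-3p for each read of miR-181a-1-3p in the pair-fed library, and 6.34 (4.94 to 8.14) in the ethanol-fed one. In experiment 2 only miR-181a-1-3p was listed above 0, so the order of these passengers as listed was opposite there. The cause of the listed 0 of miR-181a-2-3p was not tested. Against miR-181a-1-3p, miR-181a-5p had 89.6 (68.9 to 117) reads in the pair-fed and 83.2 (66.1 to 105) in the ethanol-fed library of experiment 2, with intervals that overlap. For miR-181c, the 5p strand exceeded the 3p strand by less in experiment 2 than in experiment 1, with ratios of 1.73 (1.16 to 2.59) and 1.46 (1.02 to 2.09). miR-181c-3p lay between 2.64 and 9.51 RPM in all 4 libraries, whereas miR-181c-5p was at 157 and 186 RPM in experiment 1 and at 5.92 and 6.75 RPM in experiment 2.

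**Figure D5:**
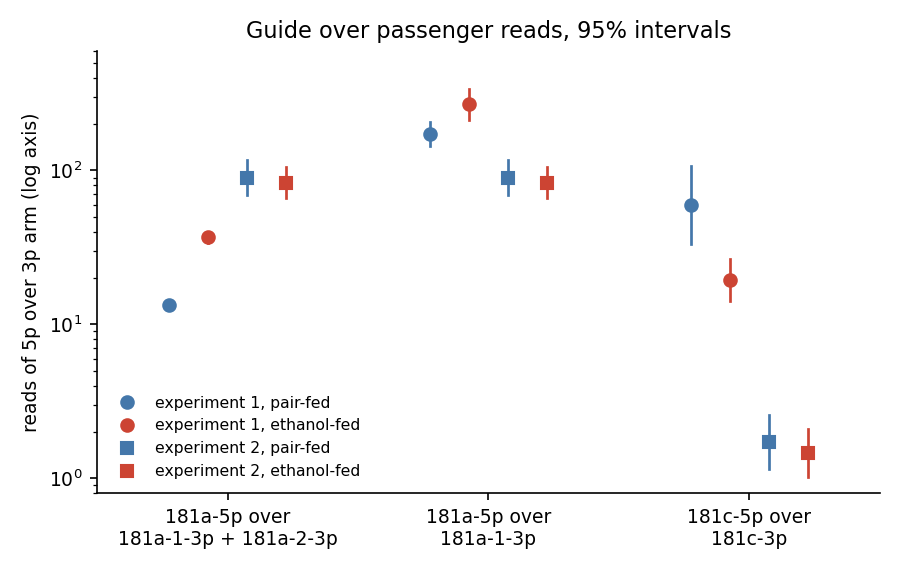
Reads of the 5p strand for each read of the 3p strand, on a log axis, with 95% intervals of counting error (circles experiment 1, squares experiment 2, blue pair-fed, red ethanol-fed). The ratio of miR-181a goes from 13.3 to 36.7 in experiment 1, and that of miR-181c is lower in experiment 2 (1.73 and 1.46) than in experiment 1.

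Markers of the cell types of liver and blood were set beside these values, where 48.7% of all microRNAs compared were higher after ethanol in experiment 1 and 50.3% in experiment 2. The leukocyte list (miR-223-3p, miR-142a-3p, miR-142a-5p, miR-150-5p and miR-155-5p) was lower after ethanol in 4 of 4 members compared in experiment 1 and in 5 of 5 in experiment 2, and its summed level went from 404 to 336 RPM and from 886 to 473 RPM. Its member miR-155-5p went from 0 RPM in the pair-fed to 0.93 RPM in the ethanol-fed library of experiment 1, with too few reads to be compared. The endothelial list (miR-126a-3p and miR-126a-5p, the 2 arms of the same hairpin) was higher in 2 of 2 members in both experiments. It went from 3854 to 5142 RPM, mostly the 5p arm, and from 22335 to 26332 RPM, mostly the 3p arm. The mesenchymal list (miR-143-3p, miR-145a-5p, miR-199a-3p and miR-214-3p) was higher in 3 of 4 members in experiment 1 and in 2 of 4 in experiment 2. Its sums were 96518 and 96073 RPM, nearly all of it miR-143-3p, and 18978 and 24067 RPM. Of the latter, miR-143-3p held 15722 and 20681 RPM and miR-199a-3p 2708 and 2842 RPM. The red cell list (miR-451a and miR-144-3p) was higher in 2 of 2 members in experiment 1, from 37.4 to 175 RPM, and lower in 2 of 2 in experiment 2, from 960 to 583 RPM. The hepatocyte marker miR-122-5p was lower in both experiments, with log2 ratios of -0.43 and -0.22. The leukocyte and endothelial lists also kept their direction in both experiments, while the red cell list did not. The part of these cells in the values of the family was not tested.

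Sirt1, a deacetylase that the study examined in ethanol-fed liver, was searched for matches to the seed of the family. The letters TGAATGT, which pair with bases 2 to 8 of the 4 guides, occur 1 time in the longest annotated 3′ UTR of Sirt1 (1631 bases, GENCODE vM21), at bases 68 to 74 after the stop codon. The stretch shown, with the match in capitals, lies in the last exon on the minus strand, at chr10:63320557-63320579 of GRCm38, and the match is held by all 4 protein-coding transcripts with an annotated stop codon.
Sirt1 3′ UTR: atgtcaaaaaaTGAATGTttact

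The same 7 letters occur in 16.4% of the longest 3′ UTRs of 21020 genes, and in 22.0% of the 1441 whose length is within 10% of that of Sirt1. The overlapping longer match TGAATGTA and the shifted match GAATGTA were not found in the Sirt1 3′ UTR, while 6.32% and 13.5% of the UTRs of like length hold them. The sense strand alone was searched. A match of letters does not show binding, and no messenger RNA was measured in these libraries.

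Other microRNAs that have been described as regulators of Sirt1, in a list of 10 written from general knowledge, gave no common direction. Of the 6 compared in experiment 1, 4 were higher and 2 lower in the ethanol-fed library, with 1 (miR-132-3p) at least 2-fold lower, beside 12.9% of all microRNAs, and 0 at least 2-fold higher, beside 12.6%. Of the 7 compared in experiment 2, 5 were higher and 2 lower, with 2 (miR-217-5p and miR-9-5p) at least 2-fold higher, beside 10.7% of all, and 1 (miR-34a-5p) at least 2-fold lower, beside 15.1%. The shares of experiment 2 include microRNAs listed at 0 in 1 library. The most abundant, miR-22-3p, was at 26328 and 30385 RPM in experiment 1 and at 5513 and 6642 RPM in experiment 2. miR-199a-5p was at 32.1 and 49.4 RPM and at 722 and 715 RPM, and miR-200a-3p at 11.0 and 13.9 RPM and at 257 and 453 RPM. The median log2 ratio of the list was 0.27 in both experiments.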

How the data were processed

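Small RNAs of whole liver were size-selected on a gel and sequenced. For experiment 1 the authors deposited read counts per mature microRNA without normalization, and for experiment 2 RPM on microRNAs. The deposited log2 fold changes and p-values of the authors were not used. The submitters' processing notes name mm8. The aligner, microRNA annotation and filters are not given in the sources used here. Columns were assigned to conditions by name, with 0 left unassigned.

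Reads of experiment 2 were estimated from the step of its values under 60 RPM (0.0925 and 0.0924 RPM), on which 98.0% of 296 and 97.3% of 291 values fell within 0.1 step. The log2 ratio used reads on microRNAs as the total and a pseudocount of 1 read per library. It was computed where both libraries of a table summed to 10 reads. The pseudocount understates changes of scarce microRNAs whose reads are all listed. In experiment 2 a listed 0 stands for anything under about 10 reads but was counted as 0 reads, which can overstate changes. The 95% interval of the ratio came from the Wilson interval of the split of reads. With 1 library per condition in each table and the tables normalized separately, no test was made. Sequences were matched by name to RefSeq, for all 7 members. The 7 members, the other passenger strands, the 5 microRNAs most like miR-181a-5p and the lists of cell markers and Sirt1 regulators were the named ones. The members and lists were chosen with earlier results of these data known. The ratios and intervals were tried on simulated counts with planted changes and counting error alone, which cannot speak to the spread between animals. Calculations used Python 3.11.15 with pandas 2.3.3, numpy 2.4.6 and scipy 1.17.1, and figures matplotlib 3.10.9.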

Additional observations from a re-analysis of the deposited data

Results flagged for a closer look

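For 3 guides the log2 ratios of the ethanol-fed to the pair-fed level lay on opposite sides of 0 in the 2 experiments, with counting intervals that exclude 0 in each. Experiment 2 minus experiment 1 gave 0.43 (95% interval of counting error 0.37 to 0.49) for mmu-miR-181a-5p, 0.78 (0.58 to 0.97) for mmu-miR-181b-5p and -1.11 (-1.59 to -0.63) for mmu-miR-181d-5p. With 1 pair of libraries in each experiment, the difference between the experiments was not tested against the spread between animals.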

How the results depend on the processing

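The 46 values of single members under other scalings or a pseudocount of 0.1 read kept their sign in every case, and 43 stayed within counting error. The 3 others were those of miR-181a-5p in experiment 1. The scalings moved log2 ratios by at most 0.048. In experiment 1, the sum over the guides had a log2 ratio of -0.12 with median-of-ratios size factors, -0.19 with miR-192-5p left out of the totals and -0.11 with unscaled reads. Over all 7 members the values were -0.18, -0.25 and -0.17, and -0.16 without miR-181a-2-3p, which was chosen after seeing the data. Without miR-181a-2-3p, also chosen then, the log2 change of the miR-181a guide over passenger ratio was 0.63 in place of 1.46. Over all 7 members, miR-181a-5p made up 86.2% and 89.6% of the reads in experiment 1, and 80.0% and 81.6% in experiment 2.

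The counts of at least 2-fold differences over all microRNAs depended on the minimum, since fewer or more microRNAs entered. In experiment 1, 38 were higher and 39 lower, against 99 and 102 with no minimum, 10 and 9 with 100 reads, and 3 and 2 with 1000 reads. In experiment 2, 50 were higher and 71 lower, against 12 and 24 with 100 reads, and 3 and 4 with 1000 reads. With its zeros set to the lowest listed value, 22 were higher and 49 lower. Of the members of experiment 1, those at least 2-fold higher went from 1 to 0 with 100 reads, as miR-181c-3p was no longer compared, and those at least 1.5-fold lower from 2 to 3 with miR-192-5p left out of the totals. Unscaled reads were not tried in experiment 2, and setting zeros to the lowest value gives no ratio for miR-181a-2-3p, which is at 0 in both libraries. The experiments were not paired in a model, since the tables were normalized separately and the labels list 1 sample per condition. At these depths, members under 10 reads could not be compared in experiment 2.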

Other observations

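The other passenger strands of the same hairpins were nearly absent. miR-181b-1-3p had 1 read in the pair-fed and 3 reads in the ethanol-fed library of experiment 1, and miR-181b-1-3p, miR-181b-2-3p and miR-181d-3p were listed at 0 in experiment 2.

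The microRNAs whose levels over the 4 libraries were most like those of miR-181a-5p, by the Euclidean distance of log2 RPM centred on each microRNA's own mean, were miR-99b-5p (0.36), miR-676-3p (0.40), miR-10a-5p (0.45), miR-125a-5p (0.48) and miR-130a-3p (0.58), among 147 with at least 100 reads in each table and a median distance of 3.76. The distance mostly reflects the gap between the experiments, and with 4 libraries it is a description. miR-99b-5p was at 8424 and 5889 RPM in experiment 1 and at 569 and 841 RPM in experiment 2, lower and then higher after ethanol as miR-181a-5p was. miR-10a-5p had the same directions, while miR-676-3p, miR-125a-5p and miR-130a-3p were higher after ethanol in both experiments. miR-99b-5p and miR-125a-5p come from neighbouring hairpins. Of the family itself, miR-181a-1-3p came 13th of the 147 (1.40), miR-181c-5p 16th (1.56), miR-181b-5p 21st (1.86) and miR-181d-5p 63rd (3.47).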
